A study of Homo sapiens with 24 samples.

Results

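The multidomain BCL2 family was followed in HT29 human colon adenocarcinoma cells, an established cell line, as 8 genes: the survival members BCL2, BCL2L1, BCL2L2, MCL1 and BCL2A1 and the pore formers BAX, BAK1 and BOK. They were taken by gene name from every probe of the array that is not a control, which gave 11 probes for 8 of the 36337 names on the array. A probe here is a 60-base DNA strand that captures labelled RNA of a transcript. A probe was tested if the scanner's software marked it as well above background on each of the 4 arrays in 1 or more groups, and 8 of the 11 probes, which stand for 7 of the 8 genes, passed. Both BCL2 probes and 1 of the 2 BCL2A1 probes did not pass.

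The cells were left untreated (NT) or were treated for 6 h with 1 of 5 agents or pairs of agents. C3/C2 was a mixture of 30 mM propionate and 15 mM acetate, the main short-chain fatty acids of propionibacteria. SN was the supernatant of a culture of these bacteria diluted 1/2, in which those acids are present at about the same amounts along with whatever else the bacteria release. TRAIL, a death ligand of the TNF family, was given at 100 ng/ml with 2 μg/ml of an anti-Flag M2 antibody. TRAIL+C3/C2 and TRAIL+SN were the co-treatments. Each of the 6 groups had 4 arrays, 24 in all, and all came from the same cell line. The study describes 2 independent experiments run in duplicate, and the labels do not say which replicate numbers belong together. The tests below treat the 4 arrays of a group as independent. Their p-values measure the spread between these arrays, some of which may be technical, and not the spread between experiments. In RNA from whole cultures, fewer cells with a transcript and less transcript per cell cannot be told apart.

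Members of this family decide whether the outer membrane of the mitochondrion stays intact. BAX and BAK1 change shape and assemble into pores that let cytochrome c out, which starts the caspase cascade, and BOK can also permeabilise the membrane. BCL2, BCL2L1 (Bcl-xL), BCL2L2 (Bcl-w), MCL1 and BCL2A1 (Bfl-1) bind the pore formers and the BH3-only activators and so hold them back. BAK1 is known to be held mainly by MCL1 and Bcl-xL. In colon cells that need mitochondria to amplify a death receptor signal, the balance of these proteins sets how TRAIL is answered. RNA levels say nothing of protein levels or of shape changes, which were not measured on these arrays.

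The probes differ in what they can see. The BAK1 probe (A_23_P145357) lies at chr6:33540585-33540644 on the minus strand, the BCL2L1 probe (A_23_P210886) at chr20:30253324-30253383 on the minus strand and the MCL1 probe (A_24_P336759) at chr1:150547622-150547681 on the minus strand, all on hg19 as the files give it. The BCL2L1 probe lists 2 RefSeq transcripts of the gene, the long and the short form, and does not separate them. The MCL1 probe lists 3 transcripts of its gene. BAX has 2 tested probes. The main one (A_23_P208706, chr19:49464904-49464963, plus strand) lists 4 transcripts, and the second (A_33_P3341144, chr19:49464454-49464513, plus strand) lists 1 transcript that the first does not. BCL2L2 (A_23_P418373, chr14:23780660-23780719, plus strand) and BOK (A_23_P253029, chr2:242513018-242513077, plus strand) have 1 probe each. Where in an exon or an untranslated region each probe falls was not analysed here, since no annotation of that build was used.

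The probes that gave no usable signal are shown by their sequence, because a reader can see from it which part of the transcript went undetected. At least 1 of the 3 reading frames of each holds no stop codon. A stretch of 60 bases can be open without being coding, so that both are coding sequence is an assumption here. They are read 5′ to 3′ from the deposited files and lie at chr18:60985401-60985460 (BCL2, minus strand) and chr15:80263136-80263195 (BCL2A1, minus strand) on hg19.
BCL2 A_33_P3355185: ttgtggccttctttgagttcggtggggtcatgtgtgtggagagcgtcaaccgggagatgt
BCL2A1 A_23_P152002: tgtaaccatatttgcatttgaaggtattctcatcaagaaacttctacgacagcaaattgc
The BCL2 probe was well above background on 2 of the 4 C3/C2 arrays and on none of the arrays of the other groups. The BCL2A1 probe was well above background on 0 of 24 arrays. The other BCL2 probe (A_23_P352266, chr18:60790723-60790782, minus strand), which is spotted 10 times per array, was also well above background on 0 of 24 arrays. BCL2 RNA was thus not measurable in these cells with these probes, and no fold change is given for it.

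The other BCL2A1 probe (A_23_P321703) was bright on every array, with levels between 2.01 and 2.58 on the log2 scale against the 75th percentile of its array. Its listed span on hg19, chr15:80253220-80253252, covers 33 bases, and it lists 4 RefSeq accessions, of which 1 was found under BCL2A1 and 3 were not found in the reference table used here. The 2 probes of this gene therefore disagree on whether its RNA is present. Values of the bright probe are given below as those of the probe.

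All values below are log2 levels: the background-corrected intensity of a probe with the 75th percentile of its array subtracted. Differences are differences of mean log2 levels from 1 limma fit over all 24 arrays, with p-values adjusted by Benjamini and Hochberg over the 27957 probes tested. A probe was called where the fold was 2 or more and the adjusted p under 0.05. No spot on any array was saturated, and replicate arrays of a group correlated with r between 0.992 and 0.998 over the probes tested. All 10 colon epithelium markers looked at, EPCAM, KRT20, CDX2 and VIL1 among them, were well above background on all 24 arrays, and of 9 markers of blood, fibroblasts and endothelium, COL1A2 and DCN were so on none and PTPRC, CD14, PECAM1 and VWF on all 24. The arrays lay on 4 slides. NT and C3/C2 replicate 1 were on slide 1 and the other NT and C3/C2 arrays on slide 2. SN and TRAIL were on slide 3 and both co-treatments on slide 4. Slide and treatment therefore cannot be told apart when SN, TRAIL or a co-treatment is set against NT, while C3/C2 against NT, SN against TRAIL and the 2 co-treatments against each other were compared on shared slides.

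BAK1 was the only member probe that passed the call rule in any treatment under the main scaling. It was called higher in both single treatments with bacterial products (C3/C2 or SN) and in both co-treatments, and no member probe was called lower. As a share of the 8 tested probes, 1 probe is 12.5%. Of all 27957 probes tested, 13.3% were called higher with C3/C2 and 14.1% with SN, and among the co-treatments 16.4% (TRAIL+C3/C2) and 16.1% (TRAIL with SN), so the share of members called higher was near the background. The shares called lower were 6.22% for C3/C2 and 9.69% for SN, and 8.12% and 10.2% when each was combined with TRAIL, against 0 of 8 members each time (no member had a fold of 2 or more downwards, whatever its p). With TRAIL alone 0 members were called (BAK1, BOK, BCL2L1, BCL2L2 and MCL1 passed the adjusted p of limma without the fold), and 0.723% of all probes were called higher and 2.11% lower.

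Without a minimum fold, most members moved, as did most of the array in every treatment but TRAIL alone. With C3/C2 6 of the 8 probes passed an adjusted p under 0.05, against 63.2% of all probes. For SN it was 5 of 8 against 68.9%, and for TRAIL 5 of 8 against 31.5%. For TRAIL+C3/C2 it was 5 of 8 against 69.6%, and for TRAIL+SN 5 of 8 against 70.3%. The median difference over the 8 probes was -0.18 for C3/C2, 0.06 for SN and 0.17 for TRAIL, and in the co-treatments 0.09 (TRAIL+C3/C2) and close to 0 (TRAIL+SN), while the median over all probes lay between -0.01 and 0.11 in these comparisons. With C3/C2 or SN, alone or with TRAIL, the family thus did not move as a block, and its members went in different directions. With TRAIL alone the 5 probes that passed were all higher under the main scaling. The members are described below by role.

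**Figure D1:**
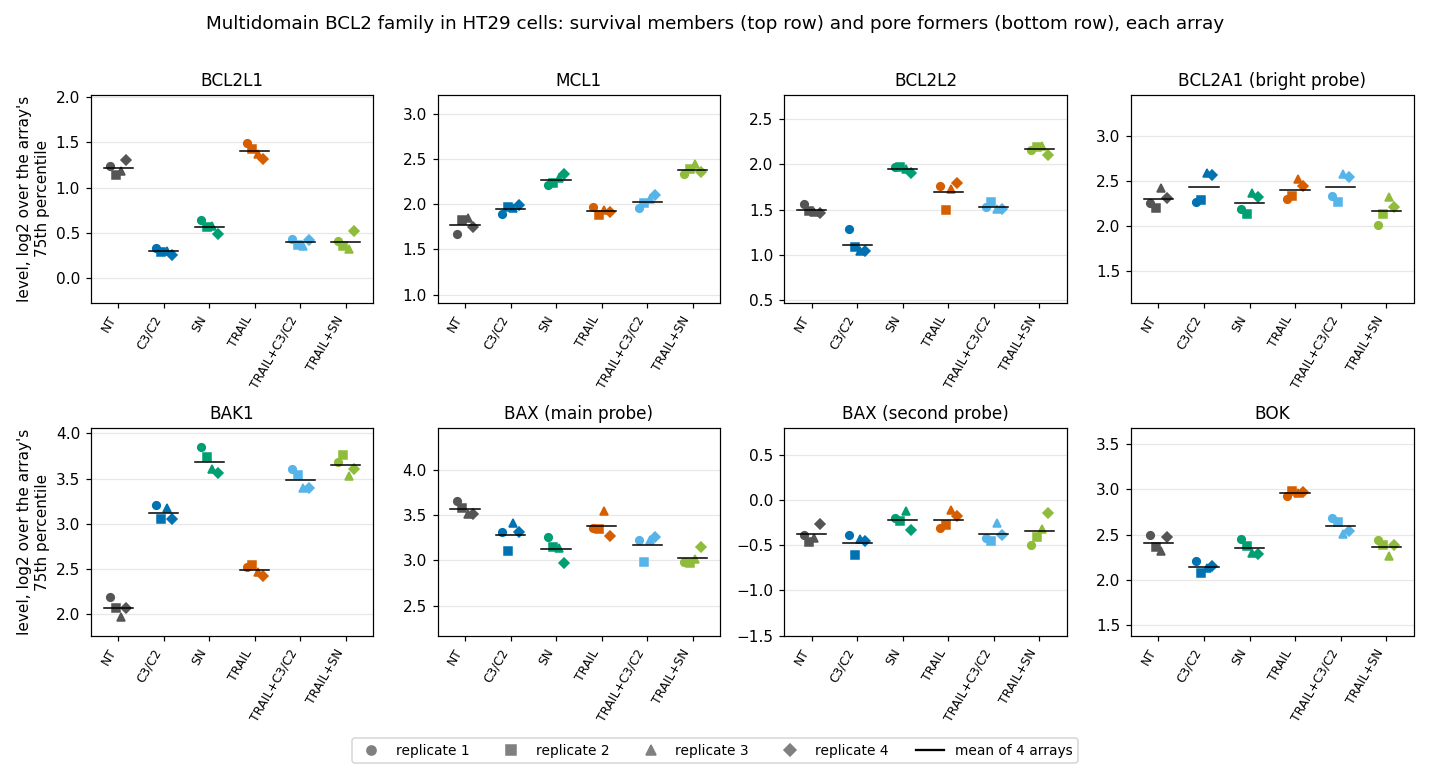
Level of each tested probe on each array, in log2 against that array's 75th percentile (vertical axis, the same span of log2 units in every panel), for the 6 groups. The shape of a point is its replicate number and the black line is the mean of 4 arrays. BAK1 rises and BCL2L1 falls in the 4 groups that received C3/C2 or SN, while BOK is highest with TRAIL alone.

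The promoters of BAK1, BAX and BCL2L1 are shown because these genes moved in different directions under the same agents. Each is the 250 bases before the annotated gene start on GRCh38.p14, from RefSeq, 5′ to 3′ on the strand of the gene. They lie at chr6:33580277-33580526 (BAK1, minus strand), chr19:48954625-48954874 (BAX, plus strand) and chr20:31723964-31724213 (BCL2L1, minus strand). Capitals mark, on either strand and with no overlaps, the GC box GGGCGG, the CCAAT box, the E-box CACGTG and the TATA box TATAAA.
BAK1: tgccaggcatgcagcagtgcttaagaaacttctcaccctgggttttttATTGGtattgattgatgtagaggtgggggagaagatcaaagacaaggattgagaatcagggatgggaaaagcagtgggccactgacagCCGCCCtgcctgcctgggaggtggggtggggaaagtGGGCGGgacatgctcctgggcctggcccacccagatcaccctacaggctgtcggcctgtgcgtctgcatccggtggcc
BAX: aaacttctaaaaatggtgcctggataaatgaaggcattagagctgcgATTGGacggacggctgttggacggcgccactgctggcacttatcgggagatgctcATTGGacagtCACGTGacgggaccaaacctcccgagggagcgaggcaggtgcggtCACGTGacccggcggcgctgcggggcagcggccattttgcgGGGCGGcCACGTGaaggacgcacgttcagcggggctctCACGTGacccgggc
BCL2L1: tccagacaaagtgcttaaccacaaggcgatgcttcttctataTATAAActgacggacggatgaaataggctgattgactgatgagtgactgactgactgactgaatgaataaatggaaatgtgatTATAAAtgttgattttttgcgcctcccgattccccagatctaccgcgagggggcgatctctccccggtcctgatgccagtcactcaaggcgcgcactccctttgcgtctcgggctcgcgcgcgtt
The BAK1 promoter holds GGGCGG at 2 places and CCAAT at 1. The BAX promoter holds CACGTG at 4 places, CCAAT at 2 and GGGCGG at 1. The BCL2L1 promoter holds TATAAA at 2 places and none of the other motifs. Over all 35116 promoter entries cut to the same length, 42.6% hold GGGCGG, 32.0% hold CCAAT, 6.34% hold CACGTG, and 3763 hold TATAAA. These are matches of letters and not measured sites. The promoter table held 6 of the 8 members, and BCL2L2 and MCL1 were not among them.

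BAK1 RNA, which encodes a pore former that sits in the mitochondrial membrane at rest, was higher in every treatment. The 4 NT arrays read 2.19, 2.06, 1.97 and 2.07. The C3/C2 arrays read 3.21, 3.05, 3.17 and 3.05, and the SN arrays 3.85, 3.74, 3.60 and 3.56. Every array of both groups lay above every NT array, and every SN array above every C3/C2 array. The difference from NT was 1.05 with C3/C2 (SE 0.07, a fold of 2.07, adjusted p = 4.92e-11) and 1.62 with SN (SE 0.07, a fold of 3.07, adjusted p = 3.6e-14). Within slide 2 alone, with 3 arrays a group, the difference with C3/C2 was 1.06.

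With TRAIL alone BAK1 read 2.52, 2.54, 2.47 and 2.43, again above every NT array but by less, a difference of 0.42 (SE 0.07, a fold of 1.34, adjusted p = 0.00017) that did not pass with spike-in scaling (0.19, adjusted p = 0.324). The TRAIL+C3/C2 arrays read 3.61, 3.54, 3.40 and 3.39, and the TRAIL+SN arrays 3.69, 3.77, 3.53 and 3.61. Against NT these are differences of 1.42 (a fold of 2.67, adjusted p = 3.26e-13) and 1.58 (a fold of 2.98, adjusted p = 4.82e-14). Both co-treatments overlapped the range of SN alone. On its own slide, SN exceeded TRAIL by 1.20 (SE 0.07, adjusted p = 4.87e-12). BAK1 was above NT under all 4 ways of scaling the arrays that were tried, but by different amounts. Under the 2-fold line lay C3/C2 with the array median (0.75) and the spike-ins (0.92), TRAIL+C3/C2 with the spike-ins (0.69) and SN against TRAIL with the array median (0.97), each still past the adjusted p.

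BAX RNA encodes the pore former that waits in the cytosol, and its main probe went the other way. It read 3.66, 3.59, 3.51 and 3.51 in NT. It read 3.31, 3.11, 3.41 and 3.31 with C3/C2, and 3.26, 3.15, 3.14 and 2.98 with SN. All arrays of these treatments lay below all NT arrays, with differences of -0.28 (SE 0.08, adjusted p = 0.0041) and -0.44 (SE 0.08, adjusted p = 5.46e-05). It fell by 0.39 with TRAIL+C3/C2 (adjusted p = 0.000173) and by 0.54 with TRAIL+SN (adjusted p = 3.89e-06). The 4 TRAIL arrays overlapped NT, with a difference of -0.19 that did not pass (adjusted p = 0.0833, 95% interval -0.35 to -0.02) but did without TRAIL replicate 3 (-0.24, adjusted p = 0.0328), with quantile normalisation (-0.30, adjusted p = 0.00356) and with spike-in scaling (-0.42, adjusted p = 0.0048). The fall with C3/C2 did not pass within slide 2 alone (-0.26, adjusted p = 0.0648).

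The second BAX probe, which lists another transcript, did not pass in any treatment under the 75th percentile scale. It overlapped NT in all 5 treatments, with differences between -0.09 (C3/C2, 95% interval -0.25 to 0.07) and 0.16 (TRAIL, 95% interval 0.01 to 0.32), with adjusted p-values of 0.0654 or more. With SN it differed by 0.16 (95% interval 0.00 to 0.32), and there the adjusted p was 0.0336 once the replicate number was fitted as a block, and 0.0344 without NT replicate 4, 0.0388 without SN replicate 4 and 0.044 without TRAIL+SN replicate 4. With array median scaling it passed with C3/C2 (-0.39, adjusted p = 0.0014), with TRAIL (0.26, adjusted p = 0.0414) and with TRAIL+C3/C2 (-0.34, adjusted p = 0.00352). With spike-in scaling it passed in both co-treatments, at -0.72 (TRAIL+C3/C2, adjusted p = 4.61e-06) and -0.43 (TRAIL+SN, adjusted p = 0.00176), where the main BAX probe read -1.12 (adjusted p = 1.29e-09) and -1.004 (adjusted p = 8e-09), a 2-fold call. The BAX values thus depend on the probe and on the scale: the 2 probes fell together in both co-treatments under the spike-ins, and the main probe alone under the 75th percentile.

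BOK RNA encodes a pore former of its own branch of the family. It stood apart from the others in being highest with TRAIL alone. NT arrays read 2.50, 2.36, 2.32 and 2.47, and TRAIL arrays 2.93, 2.98, 2.97 and 2.98, which do not overlap. The difference was 0.55 (SE 0.06, a fold of 1.47, adjusted p = 3.72e-07), and 0.32 with spike-in scaling, which did not pass (adjusted p = 0.0603). With C3/C2 the arrays read 2.21, 2.07, 2.13 and 2.15, all below NT, a difference of -0.27 (SE 0.06, adjusted p = 0.000318). With SN its arrays overlapped NT (difference -0.06, 95% interval -0.18 to 0.06), as they did with TRAIL+SN (difference -0.04, 95% interval -0.16 to 0.08), but with array median scaling both differences passed (-0.19 and -0.24), and TRAIL+SN also with the spike-ins (-0.51). TRAIL+C3/C2 stood 0.18 above NT (adjusted p = 0.0079), a difference that turned to -0.17 with array median scaling and to -0.54 with spike-in scaling. On slide 3, SN was below TRAIL by a difference of -0.61 (SE 0.06, adjusted p = 5.53e-09). No NT array lay on that slide.

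**Figure D2:**
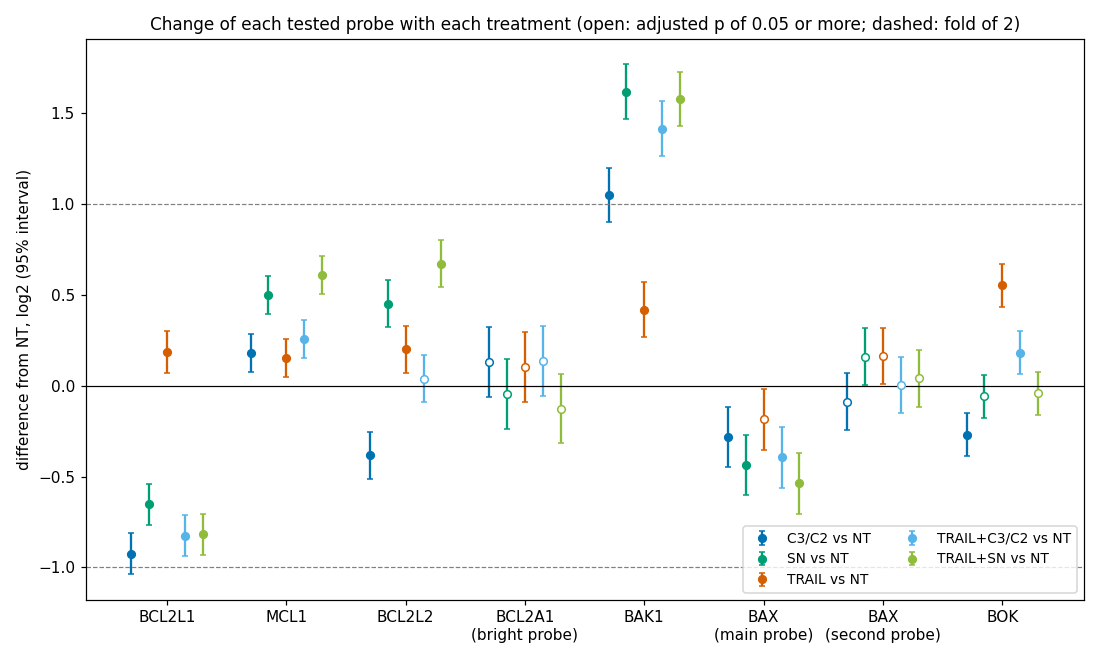
Difference from NT of each tested probe (vertical axis, log2) with each of the 5 treatments (colours), as the estimate of the limma fit with its 95% interval over 4 arrays a group. Filled points have an adjusted p under 0.05 and dashed lines mark a fold of 2. BAK1 alone crosses the dashed line, with 4 treatments, and BCL2L1 comes nearest to it from below.

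BCL2L1, the gene of the survival protein Bcl-xL, was lower in all 4 groups that received C3/C2 or SN. NT arrays read 1.24, 1.14, 1.18 and 1.30. C3/C2 arrays read 0.33, 0.29, 0.30 and 0.26, and SN arrays 0.64, 0.56, 0.58 and 0.48. All arrays of both groups lay below all NT arrays. The difference was -0.92 with C3/C2 (SE 0.05, 1.90-fold lower, adjusted p = 3.79e-12) and -0.65 with SN (SE 0.05, 1.57-fold lower, adjusted p = 8.08e-10), and within slide 2 alone it was -0.93 with C3/C2. Every SN array lay above every C3/C2 array, by 0.27 on average (adjusted p = 0.00036).

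TRAIL alone did not lower BCL2L1. Its arrays read 1.49, 1.43, 1.37 and 1.32, all above the NT arrays, with a difference of 0.18 (SE 0.05, adjusted p = 0.0127) that did not pass with quantile normalisation (0.13, adjusted p = 0.0705) and was -0.04 under spike-in scaling. With TRAIL+C3/C2 the arrays read 0.44, 0.37, 0.35 and 0.42, and with TRAIL+SN 0.41, 0.35, 0.32 and 0.52. The differences from NT were -0.82 in both (adjusted p = 1.89e-11 and 1.87e-11). Between the co-treatments the difference was within the spread of the arrays (0.01, 95% interval -0.11 to 0.12). BCL2L1 fell short of the 2-fold call under the main scaling with C3/C2, and passed it with the array median or the spike-ins as the scale.

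MCL1 RNA, which encodes a short-lived survival protein that binds BAK1, rose with SN. NT arrays read 1.67, 1.82, 1.85 and 1.75, SN arrays 2.21, 2.24, 2.29 and 2.33, and TRAIL+SN arrays 2.33, 2.39, 2.45 and 2.35. The groups do not overlap NT, with differences of 0.50 (SE 0.05, a fold of 1.41, adjusted p = 1.48e-08) and 0.61 (SE 0.05, a fold of 1.53, adjusted p = 5.44e-10, but 0.14 and not past the test with spike-in scaling). With C3/C2 the difference was 0.18 (adjusted p = 0.00364), which was -0.12 with array median scaling and did not pass within slide 2 (0.16, adjusted p = 0.102). With TRAIL+C3/C2 it was 0.26 (adjusted p = 0.000103), which turned to -0.09 and -0.47 with array median and spike-in scaling. With TRAIL it was 0.15 (adjusted p = 0.0244), and -0.08 with the spike-ins. The difference with TRAIL did not pass the adjusted p without NT replicate 1 (0.12), NT replicate 4 (0.14), TRAIL replicate 1 (0.14) or TRAIL replicate 3 (0.15). Nor did it pass with quantile normalisation (0.09, adjusted p = 0.183) or in a limma fit of only the groups compared (0.15, adjusted p = 0.101).

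BCL2L2, the gene of Bcl-w, lay on opposite sides of NT with SN and C3/C2. It read 1.56, 1.49, 1.47 and 1.46 in NT. With C3/C2 it read 1.28, 1.08, 1.04 and 1.04, all below NT. With SN it read 1.97, 1.97, 1.95 and 1.90, all above NT. It fell by 0.38 with C3/C2 (SE 0.06, adjusted p = 1.43e-05) and rose by 0.45 with SN (SE 0.06, adjusted p = 1.42e-06), and SN exceeded C3/C2 by 0.84 (SE 0.06, a fold of 1.78, adjusted p = 2.28e-09). TRAIL+SN read 2.16, 2.20, 2.20 and 2.11, a difference of 0.67 from NT (adjusted p = 3.71e-09; 0.21 with spike-in scaling, which did not pass). TRAIL+C3/C2 overlapped NT (difference 0.04, 95% interval -0.09 to 0.17), but lay below it with array median (-0.31, adjusted p = 0.000184) and spike-in scaling (-0.69, adjusted p = 5.23e-05). TRAIL alone exceeded NT by 0.20 (adjusted p = 0.0181; -0.03 with spike-in scaling), although its replicate 2 lay within the NT range. The difference with TRAIL did not pass without TRAIL replicate 1 (0.18, adjusted p = 0.0549) or TRAIL replicate 4 (0.17, adjusted p = 0.0663). Nor did it pass with quantile normalisation (0.15, adjusted p = 0.0892) or normexp background correction (0.15, adjusted p = 0.0526). In a limma fit of only the groups compared the adjusted p was 0.0908.

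The bright BCL2A1 probe did not pass in any treatment under the 75th percentile scale. Its differences from NT lay between -0.13 (TRAIL+SN, 95% interval -0.32 to 0.07) and 0.13 (TRAIL+C3/C2, 95% interval -0.06 to 0.33). With TRAIL+SN it passed under the array median (-0.32), quantile normalisation (-0.21) and the spike-ins (-0.59), and with TRAIL+C3/C2 under the spike-ins (-0.59). Replicates 3 and 4 read above replicates 1 and 2 in all 6 groups, by 0.14 to 0.29. With the replicate number as a block, the difference of 0.13 with C3/C2 had an adjusted p of 0.0103, that of -0.18 between SN and C3/C2 an adjusted p of 0.00194 and that of -0.15 between SN and TRAIL an adjusted p of 0.00458. The effect sizes are the same with and without the block.

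Since the scale of an array shifts all of its probes together, the ratio of 2 probes on the same array does not depend on it. BAK1 over BCL2L1 is such a ratio, of a pore former to a survival member that holds it. Only its change from NT is read here, as the levels of 2 probes cannot be set against each other. In log2 it read 0.94, 0.92, 0.78 and 0.76 in NT, 2.87, 2.77, 2.87 and 2.79 with C3/C2, and 3.21, 3.18, 3.03 and 3.08 with SN. The ratio rose 3.93-fold with C3/C2 and 4.83-fold with SN, 4.72-fold and 5.26-fold when each was combined with TRAIL, and by a fold of 1.18 with TRAIL alone. All 4 arrays of each treatment lay above all 4 NT arrays. The exact two-sided permutation test gave p = 0.0286 each time, the smallest that 4 arrays against 4 allow, and an adjusted p of 0.0301 over the 20 ratio tests made.

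The ratio of BAK1 to MCL1 rose by less. It rose 1.83-fold with C3/C2 and 2.18-fold with SN, 2.23-fold and 1.95-fold when each was combined with TRAIL, in all 4 arrays each (adjusted p = 0.0301, exact permutation test). With TRAIL the arrays overlapped NT, at a fold of 1.20 (exact p = 0.0571, adjusted p = 0.0571). The ratio of BAX to MCL1 moved down in every treatment, with log2 changes of -0.46 (C3/C2), -0.93 (SN) and -0.34 (TRAIL), and of -0.65 and -1.15 when C3/C2 or SN was combined with TRAIL (adjusted p = 0.0301 each, exact permutation test). BAX over BCL2L1 went up by 0.64 with C3/C2, 0.21 with SN, and 0.43 and 0.28 when each was combined with TRAIL, and down with TRAIL, at -0.37 (adjusted p = 0.0301 each, exact permutation test). With the second BAX probe, BAX over MCL1 read 0.01 with TRAIL (adjusted p = 0.914) and -0.27 with C3/C2 (adjusted p = 0.0635), and BAX over BCL2L1 read -0.02 with TRAIL (adjusted p = 0.842).

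**Figure D3:**
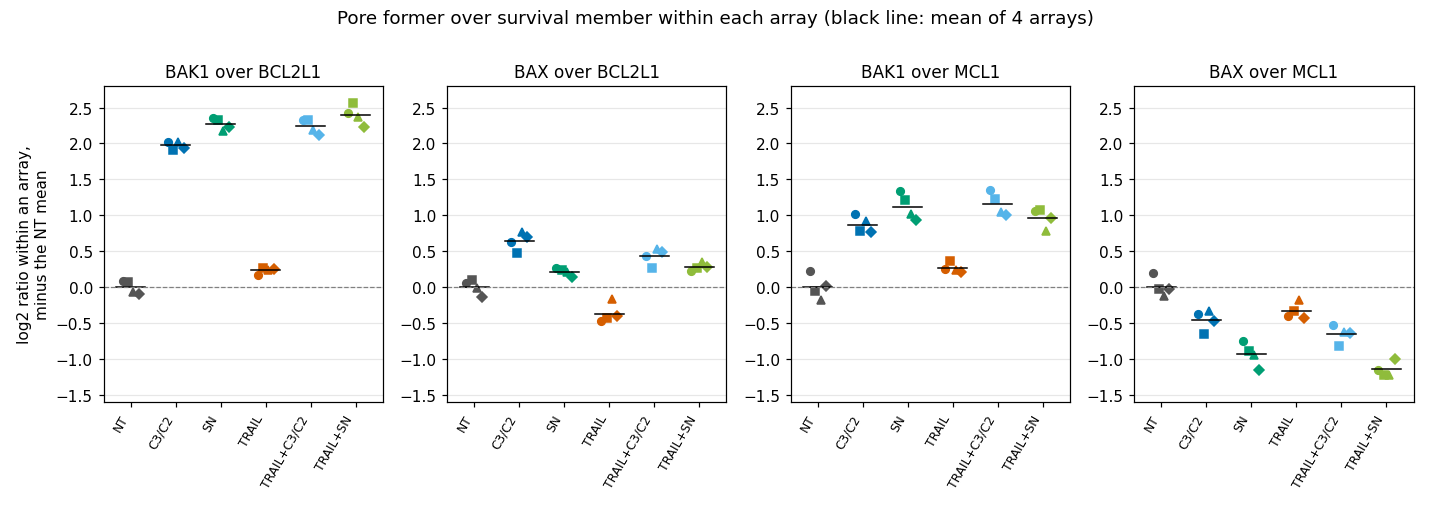
Log2 ratio of a pore former to a survival member within each array, minus the mean of the 4 NT arrays (vertical axis), for the 6 groups (BAX by its main probe). Points are arrays and black lines means of 4. BAK1 over BCL2L1 stands about 2 log2 units above NT in the 4 groups with C3/C2 or SN, and BAX over MCL1 lies below NT in all 5.

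The comparison of SN with C3/C2 asks what the supernatant does beyond its main acids. Of the 8 probes, 0 passed the 2-fold call of limma (5.49% of all probes did) and 6 passed the adjusted p alone, against 45.5% of all probes. All 6 were higher with SN: BCL2L2 by 0.84, BAK1 by 0.57, MCL1 by 0.32, BCL2L1 by 0.27, the second BAX probe by 0.25 and BOK by 0.21. Survival members and pore formers were thus both among the higher ones. With array median or spike-in scaling BCL2L2 passed the 2-fold call here. C3/C2 and SN lay on different slides.

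Of the comparisons within a slide, SN against TRAIL had 1 of 8 probes called, BAK1, against 21.0% of all probes, and 6 of 8 past the adjusted p, against 66.3%. BCL2L1 was lower with SN than with TRAIL by a difference of -0.84 (adjusted p = 1.66e-11), and MCL1 was higher by 0.34 (adjusted p = 3.1e-06; 0.12 with array median scaling, which did not pass). The main BAX probe differed by -0.25 (adjusted p = 0.00875), which was 0.02 with spike-in scaling. Between the co-treatments, 0 of 8 probes passed the 2-fold call of limma (3.48% of all probes) and 4 of 8 passed the adjusted p (37.1%). TRAIL+SN exceeded TRAIL+C3/C2 in BCL2L2 by 0.63 (adjusted p = 1.22e-07) and in MCL1 by 0.35 (adjusted p = 1.27e-05). It was lower in BOK, at -0.22 (adjusted p = 0.00396, but 0.04 with spike-in scaling), and in the bright BCL2A1 probe, at -0.26 (adjusted p = 0.0307). The BCL2A1 difference did not pass without TRAIL+C3/C2 replicate 3 or 4 or TRAIL+SN replicate 1 or 2 (values from -0.25 to -0.21). Nor did it pass with array median scaling (-0.11) or spike-in scaling (-0.001). BAK1 differed by 0.16 (adjusted p = 0.0849), with an adjusted p of 0.0154 when the replicate number was a block, 0.0442 without TRAIL+C3/C2 replicate 1 and 0.0485 without TRAIL+SN replicate 3.

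Whether TRAIL added to the other agent was asked with an interaction, the change in a co-treatment minus the sum of both single changes. For TRAIL and C3/C2, 0 of 8 member probes passed the adjusted p of limma (BCL2L2 alone had an unadjusted p under 0.05), and 2.43% of all probes did, 0.608% with a 2-fold size. The interactions ranged from -0.10 to 0.22, with BCL2L2 at 0.22 (95% interval 0.04 to 0.40, adjusted p = 0.211). For TRAIL and SN, 3 of 8 passed, BOK, BAK1 and BCL2L1, against 21.6% of all probes, and 0 of 8 with a 2-fold size, against 2.98%. BAK1 rose with TRAIL+SN by less than the sum, with an interaction of -0.46 (SE 0.10, adjusted p = 0.00302). BCL2L1 fell by more than the sum, with an interaction of -0.35 (SE 0.08, adjusted p = 0.00262). BOK, raised by TRAIL alone, was not raised when SN was there, with an interaction of -0.54 (SE 0.08, adjusted p = 0.000114). These terms cross slides 1 to 4, whose part was not tested.

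**Figure D4:**
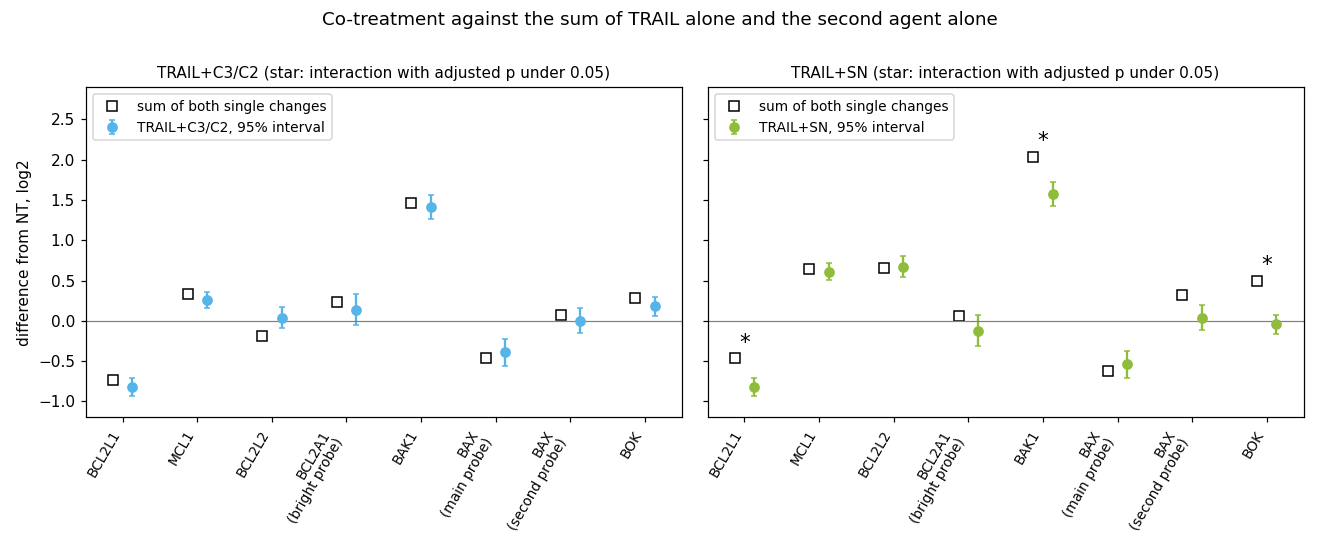
Difference from NT (vertical axis, log2) of each tested probe in the co-treatment (filled circles, with the 95% interval of the limma fit) beside the sum of the changes with TRAIL alone and with the other agent alone (open squares). Left, TRAIL+C3/C2 and right, TRAIL+SN. Stars mark an interaction with an adjusted p under 0.05, which BCL2L1, BAK1 and BOK have on the right and no probe has on the left.

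A scale that is a single value per array, such as a percentile, the array median or the spike-ins, moves every probe of a comparison by the same amount, and quantile normalisation moves probes by different amounts. Against the 75th percentile, the array median shifts the difference from NT by -0.30 (C3/C2), -0.13 (SN) and 0.10 (TRAIL), and by -0.35 and -0.19 for the co-treatments with C3/C2 or SN. The spike-in controls shift them by -0.13, 0.05, -0.23, -0.72 and -0.47. The share of called probes that were higher was 68.2%, 59.3%, 25.5%, 66.9% and 61.2% with the 75th percentile, 44.4%, 50%, 35.4%, 41.7% and 47.5% with the array median, 57.4%, 54.3%, 27.5%, 53.2% and 52.8% with quantile normalisation, and 57.8%, 62.8%, 10.3%, 20% and 30.0% with the spike-ins, in the same order. Under the array median, which is also the scale of the authors' table, the called member with C3/C2 was BCL2L1 (lower) in place of BAK1 (higher). Rises of BAK1 and falls of BCL2L1 with SN, with C3/C2 and with both co-treatments kept their direction under all 4 scales.

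**Figure D5:**
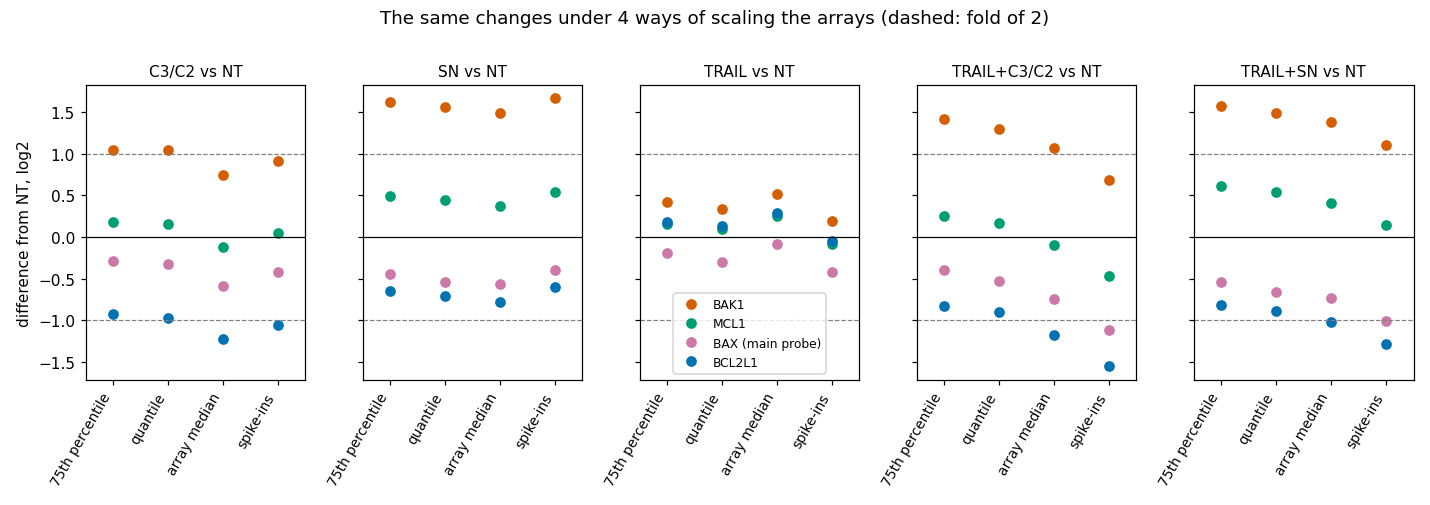
Difference from NT (vertical axis, log2) of BAK1, MCL1, BCL2L1 and the main BAX probe in the 5 treatments (panels), under 4 ways of scaling the arrays (horizontal axis). Dashed lines mark a fold of 2. In the 4 panels with C3/C2 or SN, BAK1 stays above 0 and BCL2L1 below 0 throughout, with a constant distance under the scales that shift an array as a whole, while MCL1 crosses 0 with C3/C2 and TRAIL+C3/C2.

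The other genes of the mitochondrial pathway were read from lists. Of 8 BH3-only genes, whose products trigger the pore formers or occupy the survival members, 7 were tested, and 4 were called higher with C3/C2 (13.3% of all probes were), 4 with SN (14.1%) and 5 in each co-treatment (16.4% for that with C3/C2 and 16.1% for that with SN). With TRAIL 0 were called by limma (5 passed the adjusted p without the fold, against 31.5% of all probes), 0 were called lower in any treatment, and HRK was not tested. With array median scaling the counts called higher were 3 (C3/C2) and 4 (SN), and 4 and 5 in the co-treatments with each, and with spike-in scaling 4 in each of these treatments, BCL2L11 being lost in the co-treatments. BMF rose by 3.65 with C3/C2, by 3.82 with SN, and by 3.76 and 3.88 in the co-treatments with each. BIK rose by 2.47, 2.32, 3.02 and 2.89, BBC3 (PUMA) by 1.69, 2.38, 2.76 and 3.43, and BCL2L11 (BIM) by 1.14, 1.29, 1.14 and 1.39 in the same treatments, although 1 of the 3 BCL2L11 probes, A_33_P3251932, was called in none. PMAIP1 (NOXA), which binds MCL1, was called with the co-treatments, at 1.78 and 1.48. It read 0.77 with SN (adjusted p = 2.8e-07) and 0.68 with TRAIL (adjusted p = 1.46e-05), past the adjusted p but under the fold, and 0.12 with C3/C2, and the difference between treatments was not tested. 

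Of 6 atypical family members 4 were tested, and BCL2L10, the called one in the most treatments, was lower with C3/C2 (-2.30) and SN (-2.40) and in the co-treatments with each (-2.61 and -2.68). The shares of all probes called lower there were 6.22%, 9.69%, 8.12% and 10.2%. BCL2L12 was called higher with TRAIL+SN (1.16), where 16.1% of all probes were. That call was lost with array median and spike-in scaling, and its other probe, A_33_P3244322, was not called (0.22). Of 9 channel and release genes, among them VDAC1, CYCS and APAF1, 0 were called by limma in the first 4 treatments. Without the fold, 5 passed the adjusted p with C3/C2, 5 with SN, 1 with TRAIL and 5 with TRAIL+C3/C2. Of all probes, 63.2%, 68.9%, 31.5% and 69.6% did so. With TRAIL+SN 1 gene, VDAC3, was called lower at -1.02, where 10.2% of all probes were called lower. Of 7 genes for MCL1 turnover and for chaperones, BCLAF1, a nuclear protein that binds BCL2 family members, was called lower with SN (-1.36), TRAIL+C3/C2 (-1.06) and TRAIL+SN (-1.41), where 9.69%, 8.12% and 10.2% of all probes were called lower. Its other probe, A_23_P111343, was called with SN (-1.19) and not in the co-treatments (-0.31 and -0.95). FBXW7, a ubiquitin ligase subunit that marks MCL1, was called higher with TRAIL+SN (1.03), a call lost under each of the other 3 scales.

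As a description, the named genes whose main probe followed a member most closely over the 24 arrays were MMP15, SLC2A8 and GNAI2 for BAK1 (Pearson r of 0.992, 0.992 and 0.989), and CCDC22, MRPL15 and C1orf123 for BCL2L1 (0.989, 0.988 and 0.987). For MCL1 they were VEZT, LINS and LIPG (0.973, 0.967 and 0.962), and for BAX FKBP3, ACTR2 and XRCC5 (0.931, 0.922 and 0.922). The arrays fall into 6 groups and 4 slides, which these correlations share.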

How the data were processed

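The members, the pathway lists and the marker lists were chosen with earlier results of these data known. The authors hybridised Cy3-labelled RNA of each sample to an Agilent array and deposited spot intensities from Feature Extraction 10.7.3.1, which per the file headers are background-subtracted and detrended, with no scaling between arrays. The deposited table of the authors holds a signal in which each intensity is divided by the median of its array. Flags of the scanner software (well above background, outlier, saturated) were deposited in the same files. Control and outlier spots were left out, the 10 spots of some probes were averaged in log2, and the 75th percentile of each array was subtracted. Probes marked well above background on each array of 1 or more groups, 27957 of 50599, were fitted with limma 3.58.1 in R 4.3.3 (lmFit and eBayes, 6 group means, 18 residual degrees of freedom, 24 arrays). On simulated arrays for SN against NT over 27957 probes, 86% of probes changed by 1.5 in log2 were called, and 45% of those changed by 0.5 passed the adjusted p. Only 100 probes were changed by each size there, with independent noise, while 68.9% of all probes passed the adjusted p with SN in the data. These shares therefore need not hold for the members. A gene's main probe was the tested probe with the highest mean level. All probes of the members are named, and for the lists those genes called in most treatments. Likeness used Pearson's r over 24 arrays with 3 genes named per member. The alternatives were other scalings, normexp background correction with an offset of 50, the authors' table, other filters and call rules, 1 probe per gene, fewer samples, slide as a block and leaving out each array. Same-numbered arrays deviated together with r over 0.1 for every number in 10 of 15 pairs of groups (r from 0.05 to 0.45 over all pairs). Among these 10 were NT with C3/C2, SN and TRAIL, C3/C2 with SN, SN with TRAIL and the 2 co-treatments. For those the block value stands beside a result that it moves across an adjusted p of 0.05. The number of arrays limits the precision.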

Additional observations from a re-analysis of the deposited data

Results flagged for a closer look

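The interaction of TRAIL and SN passed the adjusted p of limma for 3 member probes, against 21.6% of all probes. It was -0.46 for BAK1 (adjusted p = 0.00302), -0.35 for BCL2L1 (adjusted p = 0.00262) and -0.54 for BOK (adjusted p = 0.000114). The groups in it lie on different slides, so slide and treatment cannot be told apart, and the part of the slides was not tested. The interaction of BAK1 ranged from -0.74 to -0.41, that of BCL2L1 from -0.64 to -0.31 and that of BOK from -0.82 to -0.48 over all alternatives, with adjusted p-values of up to 0.00869, 0.0179 and 0.00315.

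Of 72 sets of 4 arrays checked for a sample far from the other 3, of which chance sets apart about 1 in 20, 1 was found. The main BAX probe in TRAIL+C3/C2 replicate 2 read 2.98, against 3.22 to 3.26 in the other 3 replicates.

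The BCL2 probe A_33_P3355185, which no comparison uses, was well above background in C3/C2 replicate 2, at -5.21, and in C3/C2 replicate 3, at -5.11. It was so on no NT array, where it read between -7.58 and -5.59. The difference was not tested.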

How the results depend on the processing

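Counts of called member probes were the same as reported in most settings: quantile normalisation, normexp, either dim-probe filter, the unadjusted p with a 2-fold change, 1 probe per gene, only the groups compared, slide as a random or fixed block, slide 2 alone, and the replicate block (1 for every treatment against NT but TRAIL, 1 for SN against TRAIL, 0 otherwise). Leaving out each of the 24 arrays gave the same counts, from 0 to 1. Array median scaling and the authors' table gave 2 for both co-treatments (BCL2L1 added) and 1 for SN against C3/C2 (BCL2L2), and spike-in scaling gave 2 (BAX and BCL2L1, without BAK1), 3 and 1. The called gene was BCL2L1 in place of BAK1 with C3/C2 under array median, authors' table and spike-in scaling, and for SN against TRAIL under the first 2. Without a minimum fold the counts were 6 (C3/C2), 5 (SN), 5 (TRAIL), 5 (TRAIL+C3/C2), 5 (TRAIL+SN), 6 (SN against C3/C2), 6 (SN against TRAIL), 4 (co-treatments) and 3 (TRAIL and SN interaction).

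All ratios but 3 kept their direction in the settings tried, and their side of the threshold where the exact test was run. The authors' table divides each array by 1 value and so cannot change a ratio within an array. Pairing by replicate number (the replicate block) by its arithmetic leaves their mean change as it is (1.97 for BAK1 over BCL2L1 with C3/C2), and no paired test was run. Apart from leaving out arrays, only normexp could thus move the BAK1 ratios. With the second BAX probe, BAX over BCL2L1 with TRAIL was -0.022, BAX over MCL1 with C3/C2 was -0.268, and BAX over MCL1 with TRAIL turned to 0.011. Leaving out an array moved no ratio by more than 1 SD between arrays. The exact test was not run with 3 arrays against 4.

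Directions of single probes turned in 22 of 2822 values, all under another scaling. Most of the 2822 come from settings that leave the estimated difference unchanged or move it little, such as filters, blocks and leaving out an array. Their share therefore says little on how firm a direction is. The authors' table repeats the turns of array median scaling, and both are counted. With array median scaling or the authors' table, MCL1 with C3/C2 was -0.12, and with TRAIL+C3/C2 BCL2L2 was -0.31, MCL1 -0.09, the second BAX probe -0.34 and BOK -0.17. With spike-in scaling BCL2L1, BCL2L2 and MCL1 with TRAIL were -0.044, -0.03 and -0.077. With TRAIL+C3/C2 BCL2L2 was -0.69, MCL1 -0.47, the bright BCL2A1 probe -0.59, the second BAX probe -0.72 and BOK -0.54, and with TRAIL+SN the second BAX probe was -0.43. Between SN and TRAIL the BAX probes were 0.025 and 0.274, and between the co-treatments BOK was 0.035. The cause was not tested. A sign that changed where neither value passed was not counted as a turn. A further 37 values lost and 52 gained an adjusted p under 0.05. With the replicate block the bright BCL2A1 probe also passed with TRAIL+C3/C2 (adjusted p = 0.0084), with TRAIL+SN (0.0125) and in the interaction of TRAIL and SN (0.0278), and the second BAX probe in the last (0.0262). Small differences are limited by 4 arrays a group, and those of BCL2 by signal at background.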

Other observations

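The main probes of BAK1 and BAX, unlike the bright BCL2A1 probe, did not split by replicate number without overlap in all groups. BAK1 read lower on average in replicates 3 and 4 than in 1 and 2 in all 6 groups (differences from -0.21 to -0.02), in 4 of 6 without overlap. The main BAX probe read higher in 3 groups and lower in 2, each without overlap. Over the whole array, deviations of arrays of different groups correlated at 0.13 on average within the numbers 1 and 2 or 3 and 4 and at -0.16 across them.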
